A study of Mus musculus with 4 samples.

Results

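The genes described here encode the enzymes that place and remove methyl groups on cytosine in DNA, and the cofactors that steer them. They are Dnmt1, Uhrf1, Dnmt3a, Dnmt3b and Dnmt3l on the methylating side and Tet1, Tet2, Tet3 and Tdg on the demethylating side. A gene was taken as measured where the array's annotation gave a probe set that symbol and no other, which held for 8 of the 9 genes and for 11 probe sets, out of 19938 genes and 35556 probe sets in all. The 4 probe sets annotated to Tdg, the DNA glycosylase that excises oxidised methylcytosine, also carry the symbol of its pseudogene Tdg-ps2, so Tdg was not analysed here. Where a gene had several probe sets, the one with the highest mean over the arrays stands for it and the others are given beside it.

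The RNA came from E14, a mouse embryonic stem cell line, in 2 groups of 2 Affymetrix arrays each. One group had 0.5 mM valproic acid (VPA) in the medium for 4 h, and the other was untreated. VPA is a branched short-chain fatty acid that inhibits histone deacetylases. All cells, treated or not, were kept with leukemia inhibitory factor and serum on mitomycin-treated primary embryonic fibroblasts, so that RNA of these feeder cells could be present in each sample. The labels number the samples as replicates without naming separate cultures, so the spread behind each p-value is that of these 4 arrays and may be technical.

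In mammals, Dnmt3a and Dnmt3b methylate previously unmethylated CpG sites, and Dnmt3l, which has no catalytic activity of its own, stimulates them. Dnmt1 copies the pattern to the new strand after replication, guided there by Uhrf1, a protein that recognises hemimethylated DNA. The Tet dioxygenases oxidise methylcytosine, and the oxidised base is then lost through replication or through excision by Tdg and repair. Mouse embryonic stem cells are known for high levels of Tet1 and Tet2 and low levels of Tet3, and for tolerating the loss of DNA methylation.

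Values are log2 signals made by the authors with RMA, and a difference is VPA minus untreated on that log2 scale. None of the 8 genes passed the test of the difference (limma, two-sided, adjusted p under 0.05 after Benjamini-Hochberg adjustment over all probe sets). The same test called 0% of the 35556 probe sets, with 0.462 as the smallest adjusted p. The differences of the 8 genes ran from -0.22 for Tet1 to 0.12 for Uhrf1, which is 0.861-fold to 1.09-fold. Of them 6 were below 0 and 2 above, with a median of -0.14, while 48.2% of all probe sets and 46.3% of represented genes lay below 0, and the genes' median difference was 0.015. The count and the median rested on untreated replicate 2, because without that array 3 of the 8 lay below 0 and their median was 0.016. In bulk RNA, fewer cells of a type and less RNA per cell cannot be told apart.

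The 250 bases upstream of the annotated starts of Tet1 and Tet2 are shown because these genes had the clearest separation of the arrays among the genes on the demethylating side, and because CpG sites are the substrate of the enzymes. The sequences are from RefSeq (build GRCm38.p6), 5' to 3' on the strand of the gene, with each CG in capitals. The Tet1 window is chr10:62887325-62887574 and the Tet2 window is chr3:133544391-133544640, both on the minus strand.
Tet1: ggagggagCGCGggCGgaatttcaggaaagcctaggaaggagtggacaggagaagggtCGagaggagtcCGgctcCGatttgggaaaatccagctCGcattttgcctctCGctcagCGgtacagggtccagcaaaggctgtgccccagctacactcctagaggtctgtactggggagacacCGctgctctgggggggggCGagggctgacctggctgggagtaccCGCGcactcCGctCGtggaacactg
Tet2: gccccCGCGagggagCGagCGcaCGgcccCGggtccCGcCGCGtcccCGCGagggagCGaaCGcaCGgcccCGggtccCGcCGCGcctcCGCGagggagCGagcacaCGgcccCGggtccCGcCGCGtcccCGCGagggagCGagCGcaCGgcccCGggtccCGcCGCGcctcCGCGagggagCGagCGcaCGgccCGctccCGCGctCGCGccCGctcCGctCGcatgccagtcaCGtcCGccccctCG
The Tet1 window holds 15 CG pairs and the Tet2 window 51, against a median of 6 over 32851 such windows of the mouse table. In CG pairs the Tet2 window ranks at percentile 99.9 and the Tet1 window at percentile 72.7 of those windows.

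RefSeq starts matched all 9 genes, with 16 windows of 250 bases. Dnmt3a had the most CG pairs on the methylating side, with 38, 40 and 15 at its 3 starts. Dnmt3l had 5, 4 and 3 at its 3 starts, below the median of all windows. Dnmt1 had 26, 7 and 2 CG pairs at its 3 starts and Uhrf1 had 10 and 30 at its 2 starts. Dnmt3b had 21, Tet3 had 17 and Tdg had 19, each at a single start. Both strands were searched for the GC box GGGCGG and for CCAAT. The GC box is in 32.7% of all windows and in 11 of the 16 member windows, at least 1 for every gene but Tdg. The 16 windows are not independent, since a gene has up to 3 and 2 of those of Dnmt3a overlap. GGGCGG also holds a CG itself, so its share is not separate from the CG counts. CCAAT is in 33.9% of all windows and in 6 of the 16, which belong to Dnmt1, Uhrf1, Tet3 and Tdg. Which start the arrays' probes represent was not tested.

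Tet1, the dioxygenase known for its abundance in embryonic stem cells, had the largest difference of the 8 genes. Its main probe set (10369690) read 9.76 and 9.63 in VPA cells, against 9.90 and 9.92 in untreated cells. Both VPA arrays lay below both untreated arrays, with 0.15 between the nearest pair. The means were 9.70 ± 0.087 in VPA cells and 9.91 ± 0.012 in untreated cells (SD, n = 2 each). The difference was -0.22 ± 0.11 (SE), with a 95% interval from -0.50 to 0.069 and an adjusted p of 0.613 in limma.

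The other Tet1 probe sets pointed the same way. Probe set 10369702 read 9.68 and 9.62 in VPA cells, against 9.90 and 9.81 in untreated cells, a difference of -0.21 with a gap of 0.13 between the groups. Probe set 10369688 read 9.56 and 9.47 in VPA cells, against 9.57 and 9.67 in untreated cells. Its groups were nearly in contact, 0.0039 apart, and its difference was -0.10. The 3 probe sets share the same RNA samples, so their common direction counts as one observation of each array. With each array left out in turn, the difference of the main probe set stayed between -0.28 and -0.15.

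Tet2, which carries no CXXC DNA-binding domain of its own, differed by less. It read 7.65 and 7.71 in VPA cells, against 7.75 and 7.92 in untreated cells. The groups did not overlap, but the nearest arrays were only 0.038 apart, and untreated replicate 2 stood above the other arrays. The difference was -0.16 ± 0.12 (SE), with a 95% interval from -0.46 to 0.15 and an adjusted p of 0.742 in limma. Without untreated replicate 2 it was -0.068.

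Tet3, the member known from the oocyte and zygote, gave a dim signal. Its main probe set (10545682) read 4.23 and 4.06 in VPA cells, against 4.14 and 4.50 in untreated cells. The groups overlapped and the highest value was untreated replicate 2, without which the difference of -0.17 ± 0.16 (SE) became 0.0031. The other probe set (10545692) read 3.86 and 3.96 in VPA cells, against 3.78 and 3.97 in untreated cells, a difference of 0.033. The Tet3 probe sets therefore disagreed in sign, and both lay near the middle of all signals, at percentiles 56.2 and 51.7. The other 7 main probe sets lay between percentiles 84.3 and 97.3. Signals of different probe sets are not a scale of RNA abundance, and the percentile only says how dim a signal was.

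**Figure D1:**
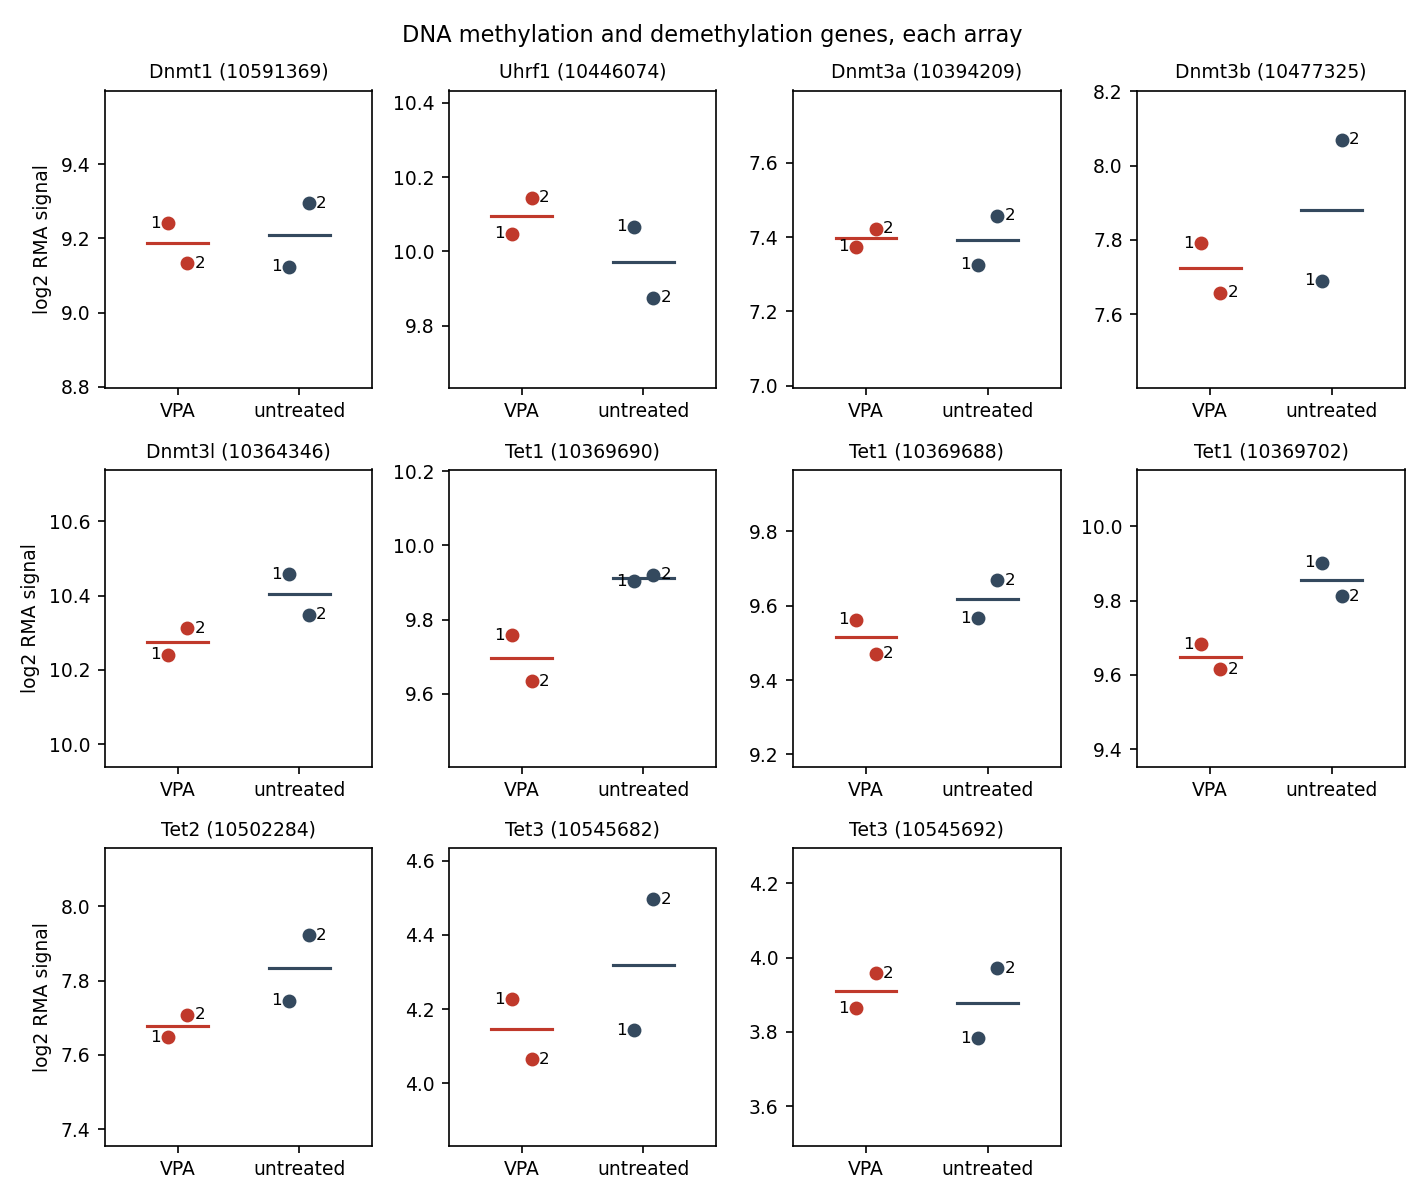
Log2 RMA signal of the 11 probe sets in each array, VPA left and untreated right, with the replicate number beside each point and the group mean as a line; every panel spans 0.8 log2 units. The 3 Tet1 panels, Tet2 and Dnmt3l show VPA points below both untreated points, and untreated replicate 2 is the highest array in 8 of the 11 panels.

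On the methylating side no gene passed the test. Dnmt1, the maintenance methyltransferase, read 9.24 and 9.13 in VPA cells, against 9.12 and 9.29 in untreated cells. The VPA arrays lay between the untreated ones, and the difference was -0.021 ± 0.12 (SE) with a 95% interval from -0.34 to 0.29, or 0.793-fold to 1.23-fold. Its sign turned without VPA replicate 2 (0.033) and without untreated replicate 2 (0.064).

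Uhrf1, which brings Dnmt1 to hemimethylated sites, was the member with the highest positive difference. It read 10.05 and 10.14 in VPA cells, against 10.07 and 9.88 in untreated cells. VPA replicate 1 lay just under untreated replicate 1, so the groups overlapped. The difference was 0.12 ± 0.12 (SE), with a 95% interval from -0.19 to 0.44 and an adjusted p of 0.80 in limma. It stayed above 0 with each array left out, between 0.029 and 0.22, and was smallest without untreated replicate 2.

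Dnmt3a, a de novo enzyme, read 7.37 and 7.42 in VPA cells, against 7.33 and 7.46 in untreated cells, the narrowest spread over the arrays of any member. Its difference was 0.0069 ± 0.11 (SE), with a 95% interval from -0.28 to 0.30, and its sign turned after a second quantile normalization (-0.066), without VPA replicate 2 (-0.017) and without untreated replicate 1 (-0.059). Dnmt3b, the other de novo enzyme, read 7.79 and 7.66 in VPA cells, against 7.69 and 8.07 in untreated cells. Untreated replicate 2 alone stood apart, and the difference of -0.16 ± 0.16 (SE), with a 95% interval from -0.58 to 0.27, was 0.034 without that array. These intervals leave room for a Dnmt3b level as low as 0.669-fold or as high as 1.20-fold of the untreated one.

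Dnmt3l, the noncatalytic partner of the de novo enzymes, was the only methylating-side gene whose groups did not overlap. It read 10.24 and 10.31 in VPA cells, against 10.46 and 10.35 in untreated cells, with 0.036 between the nearest arrays. The difference was -0.13 ± 0.11 (SE), with a 95% interval from -0.41 to 0.16 and an adjusted p of 0.771 in limma. With each array left out it stayed between -0.18 and -0.072.

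**Figure D2:**
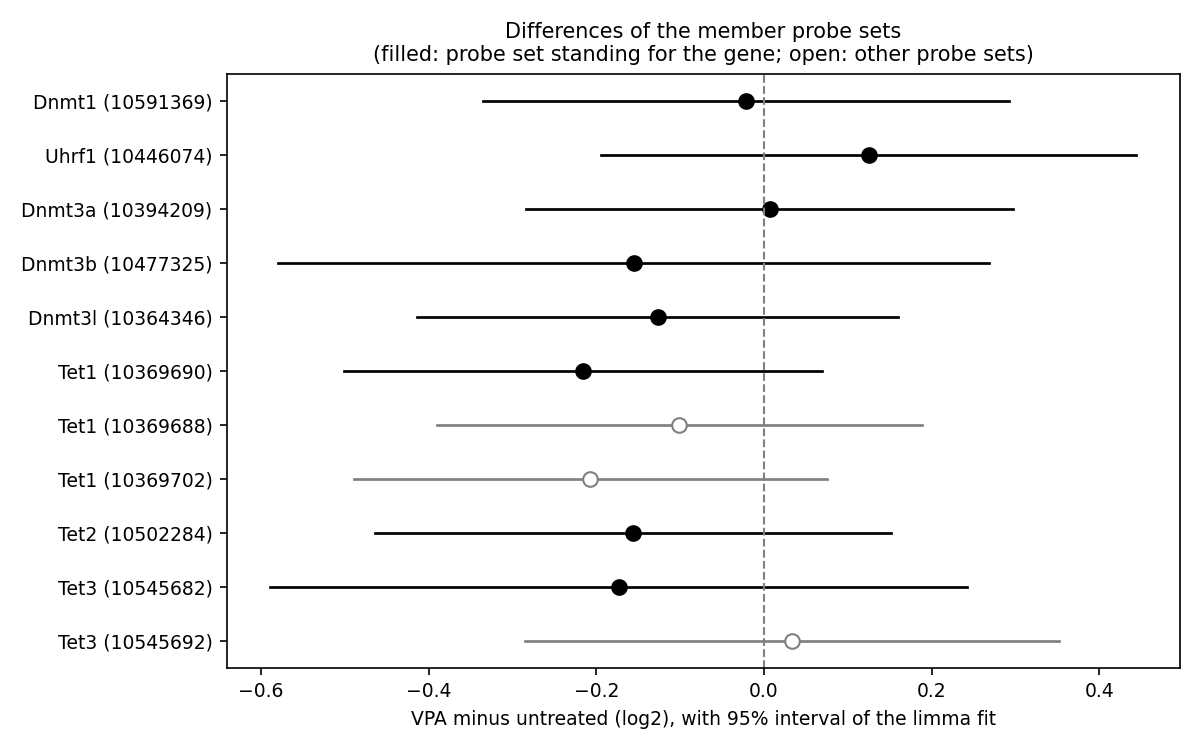
Difference VPA minus untreated on the log2 scale for each of the 11 probe sets, with the 95% interval of the limma fit; filled points stand for the gene and open points are its other probe sets. Every interval includes 0, and the intervals of Dnmt3b and of the brighter Tet3 probe set are the widest.

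Set side by side, the 3 Tet genes all had negative differences, from -0.22 to -0.16 with a median of -0.17, whereas the 5 methylating-side genes ran from -0.16 to 0.12 with a median of -0.021. No test was made of the difference between the sides. Dnmt3b (-0.16) and Dnmt3l (-0.13) were about as low as Tet2, and Tdg is missing from the demethylating side. Without untreated replicate 2, Tet1 was -0.21, Tet2 -0.068 and Tet3 0.0031, and the other Tet3 probe set was 0.033 over all arrays. The groups did not overlap for 3 of the 8 genes, Tet1, Tet2 and Dnmt3l, all of them lower in VPA cells. Over all probe sets the groups did not overlap for 40.4%, with 18.7% lower and 21.7% higher. Over represented genes 18.1% were lower and 24.1% higher without overlap. For 2 arrays against 2, an exact permutation test cannot give a p below 0.33, even without overlap. No member had an unadjusted p under 0.05 in limma, where 9.19% of all probe sets and 8.61% of represented genes did.

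**Figure D3:**
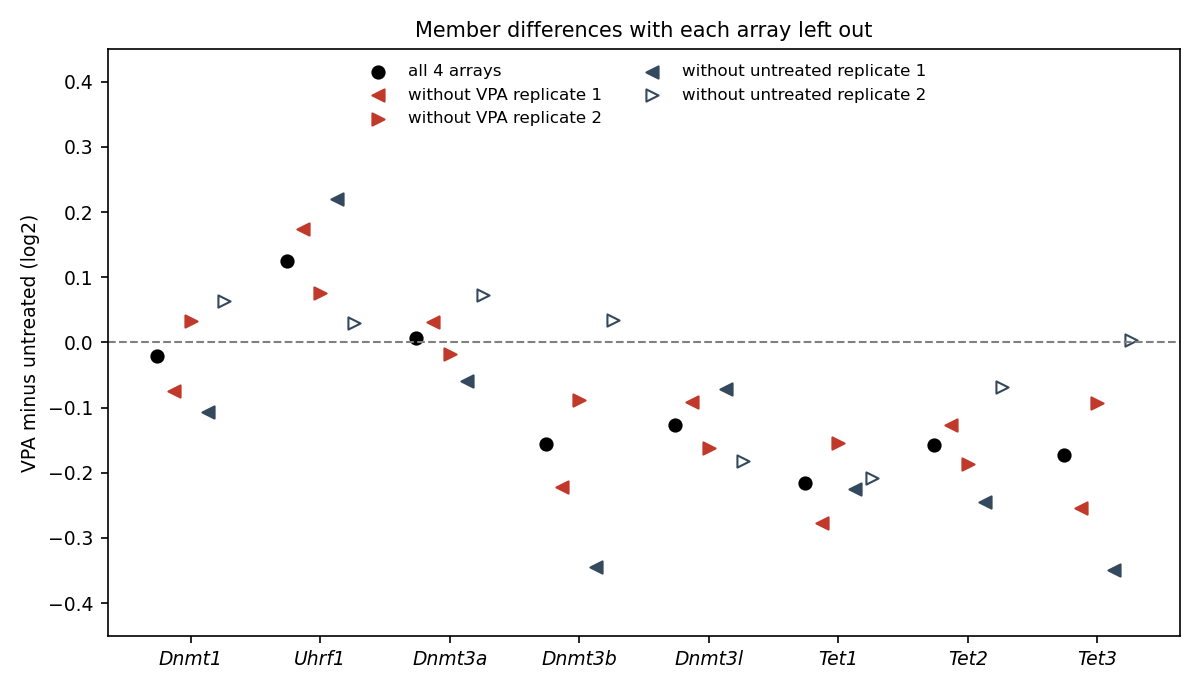
Difference VPA minus untreated on the log2 scale for the 8 genes, over all 4 arrays and with each array left out. Tet1, Tet2 and Dnmt3l stay below 0 and Uhrf1 above 0 in each case, while Dnmt3b and Tet3 move to 0.034 and 0.0031 without untreated replicate 2.

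Untreated replicate 2 differed most from the rest, and it gave the highest signal in 8 of the 11 member probe sets. The SD over probe sets of its difference from another array was between 0.311 and 0.36, against 0.285 to 0.301 among the other arrays. Embryonic stem cell markers were bright, with untreated means from 8.39 for Tfcp2l1 to 12.52 for Dppa5a, and 3 of 10 had a positive and 7 a negative difference. At an unadjusted p under 0.05 in limma 1 of them was lower, Utf1 at -0.33, and 0 were higher, and that count was 0 with each array left out. Nanog and Sall4, also markers of these cells, are counted further on with the Tet partners. The summed linear signal of the 10 was 17284 and 17792 in VPA cells, against 18304 and 16379 in untreated cells. Of 25 fibroblast feeder markers, 6 had a positive and 19 a negative difference, with a median of -0.072. At that p 2 were higher, Cav1 (0.44) and Thy1 (0.31), and 1 was lower, Ccdc80 (-0.31). Both counts were 0 without VPA replicate 1 and without VPA replicate 2. The feeder list's summed linear signal was 3331 and 3346 in VPA cells, against 3435 and 3558 in untreated cells. Vim, Fn1 and Sparc, with untreated means of 10.24, 9.98 and 9.14, weigh most in that sum. Other markers were dim, such as Lum (2.18) and Fap (2.46), and the sum says little of them. Whether the signal of the bright markers came from feeder cells was not tested. The part of feeder RNA in the differences of the 8 genes was not tested.

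The rest of the pathway was read from lists of genes. In none of them did a gene pass the adjusted test, so the counts below are of genes at an unadjusted p under 0.05, where 2.71% of represented genes (3.43% of probe sets) were lower and 5.9% (5.76%) higher. Partners and modulators of the Tet enzymes had 4 of 11 genes at that p lower in VPA cells and 0 higher, with a median difference of -0.21. Hcfc1, a host cell factor found with the glycosyltransferase Ogt, read 8.79 and 8.65 in VPA cells, against 9.20 and 9.34 in untreated cells, a difference of -0.55. Nanog, a pluripotency factor that binds Tet1, read 10.18 and 10.39 in VPA cells, against 10.88 and 10.65 in untreated cells. The zinc finger factor Sall4 differed by -0.43 and the RNA-binding protein gene Lin28a by -0.34. In the list 6 of 11 genes were lower without overlap and 0 higher, where 18.1% of represented genes were lower without overlap. Nanog, Sall4 and Lin28a are themselves genes of the pluripotent state. Ogt itself, which binds Tet proteins, read 8.96 and 9.09 in VPA cells, against 8.99 and 8.57 in untreated cells, with overlap. With an array left out the count of lower genes at that p was 2 or 3, with 1 higher gene without untreated replicate 1, and it was 5 after a second quantile normalization.

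Factors that act on the methyltransferases went both ways, with 1 of 19 lower and 3 higher at that p and a median of 0.032, which was -0.044 after a second quantile normalization. Prdm14, a repressor of the de novo methyltransferase genes in mouse embryonic stem cells, read 4.74 and 4.94 in VPA cells, against 5.84 and 5.55 in untreated cells. That is a difference of -0.86 ± 0.15 (SE), with an adjusted p of 0.462 in limma, beside -0.16 for Dnmt3b, -0.13 for Dnmt3l and 0.0069 for Dnmt3a. Kdm1b, a histone demethylase needed for imprint methylation in mouse oocytes, read 5.83 and 5.73 in VPA cells, against 5.02 and 5.02 in untreated cells. Its difference was 0.76 ± 0.11 (SE), with the same adjusted p of 0.462 in limma. Setd2, which writes the histone mark that the de novo enzymes read, differed by 0.38, and the ubiquitin ligase scaffold gene Cul4a by 0.35. The count of higher genes at that p was 2 without VPA replicate 1 and 1 with any other array left out.

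Dppa3, a protein that keeps Uhrf1 from chromatin, read 3.39 and 3.80 in VPA cells, against 4.19 and 3.80 in untreated cells, at a dim signal. Hells, a remodeller needed for normal DNA methylation, read 10.42 and 10.56 in VPA cells, against 10.64 and 10.29 in untreated cells. Its VPA arrays lay between the untreated ones, as those of Dnmt1 did.

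Methyl-CpG readers and their relatives also went both ways, with 3 of 10 measured genes below and 2 above their untreated level at that p. Their median of 0.026 was -0.011 after a second quantile normalization. The lower ones were Mbd6 (-0.61), Zfp57 (-0.42), which protects methylation at imprinted regions, and Mbd3 (-0.37), a subunit of the NuRD deacetylase complex. Mbd3 and Mbd6 carry the domain of the family but in mammals do not bind methylated CpG as its readers do, and Trim28 in the list is a corepressor recruited by Zfp57. The higher ones were Mbd1 (0.36) and Zbtb38 (0.31), both of which bind methylated DNA. The count of lower genes was 0 without VPA replicate 2 and 1 without untreated replicate 2, and that of higher ones was 1 without untreated replicate 1 and 0 with any other array left out. Zfp57 read 10.53 and 10.41 in VPA cells, against 10.90 and 10.88 in untreated cells. In all 10 genes of this list the groups did not overlap, 5 lower and 5 higher, where 42.2% of represented genes did not overlap in either direction.

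In the repair steps that follow oxidation, 1 of 16 genes was higher at that p and 0 were lower, with a median of -0.028 that was 0.0033 without VPA replicate 1 and 0.035 without untreated replicate 2. Without VPA replicate 2 or untreated replicate 2 the higher count was 0, and without untreated replicate 1 the lower count was 2. The higher gene was Neil3, a DNA glycosylase of oxidised bases, at 5.66 and 6.02 in VPA cells, against 5.38 and 5.23 in untreated cells. Mbd4, a glycosylase of mismatched thymine like Tdg, read 6.28 and 6.29 in VPA cells, against 6.08 and 5.95 in untreated cells. The uracil glycosylase gene Ung read 7.64 and 7.64 in VPA cells, against 7.67 and 7.90 in untreated cells. Mbd4 was thus higher and Ung lower without overlap, by 0.27 and -0.14. The nearest arrays of Ung were only 0.025 apart, and untreated replicate 2 stood above the other arrays. In the list 4 of 16 genes were higher and 5 lower without overlap, where 24.1% of represented genes were higher and 18.1% lower.

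The list named for the S-adenosylmethionine cycle, the source of the methyl group, also holds folate, glycine and salvage genes. It had 3 of 14 measured genes higher and 0 lower at that p, with a median of 0.13. Mtr, the methionine synthase, read 7.89 and 7.85 in VPA cells, against 7.56 and 7.50 in untreated cells. Mtap, which salvages methylthioadenosine, differed by 0.49 and Gldc, the glycine decarboxylase, by 0.30. The count was 0 without VPA replicate 1, without VPA replicate 2, without untreated replicate 2 and after a second quantile normalization. Of the 20 genes listed, 6 were not analysed here, Mat2a and Ahcy among them, so the counts are not those of the cycle itself.

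Germline genes known to be silenced by promoter methylation had 1 of 24 higher and 0 lower at that p. It was the deubiquitinase gene Usp26, at 7.04 and 7.12 in VPA cells, against 6.78 and 6.12 in untreated cells. The list's median of 0.11 was -0.0038 without VPA replicate 2 and -0.037 without untreated replicate 2. Leaving out untreated replicate 1 gave a median of 0.24 and 2 higher genes at that p, and the count was 0 with any other array left out. In the list 15 of the 24 genes had a positive and 9 a negative difference. Dazl, an RNA-binding protein of germ cells, differed by 0.039. The meiotic gene Sycp1, at a dim signal (percentile 37.3), differed by -0.016. The signals of the list were not all dim. Untreated means were 8.75 for Tuba3a and 8.55 for Rpl10l, against 3.05 for Asz1, and Usp26 lay at percentile 79.6. Dazl, Sycp1, Tuba3a, Rpl10l and Asz1 were named after their values were seen and do not stand for the list. Whether the genes of the list were silenced in these cells was not tested. DNA methylation itself was not measured on these arrays.

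**Figure D4:**
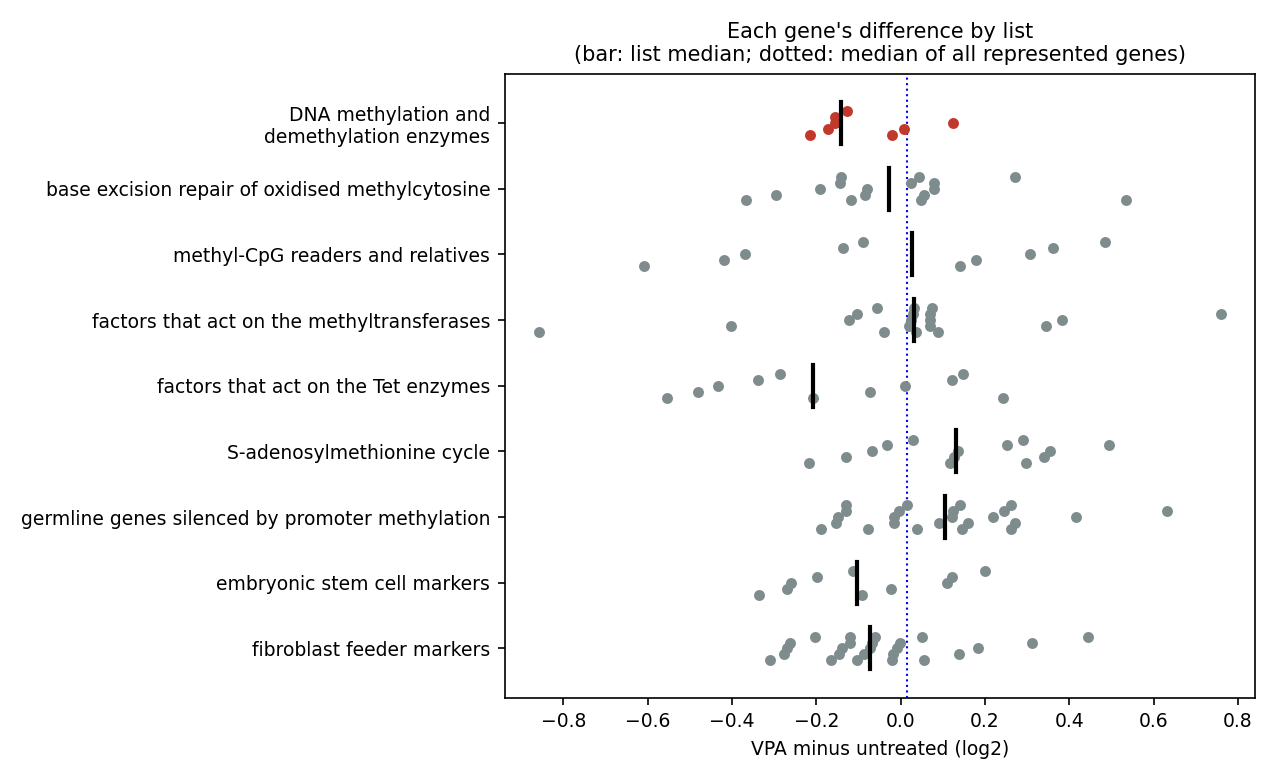
Difference VPA minus untreated on the log2 scale for each gene of the 8 measured enzymes and cofactors and of the 8 lists, with the list median as a bar and the median of all represented genes as a dotted line. The 8 enzymes and cofactors span -0.22 to 0.12. The 19 factors that act on the methyltransferases run from -0.86 (Prdm14) to 0.76 (Kdm1b), and a range tends to widen with the number of genes.

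Tet3 had the largest SD over the 4 arrays among the members (0.187, with Dnmt3b also at 0.187). Of the genes searched, those whose profile, centred on its own mean, lay nearest to that of Tet3 were Rbmxl2 (root mean square distance 0.0022), Cox7b2 (0.0075) and Snrpc (0.0076), over 4 arrays. The search left out the members, genes with only a predicted or clone name, olfactory and vomeronasal receptor genes, microRNAs and small nucleolar RNAs. With so few arrays, near matches among the genes kept out of 19938 are a description only. Each of the 3 read highest in untreated replicate 2, as the brighter Tet3 probe set did, which follows from how they were chosen.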

How the data were processed

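RNA of VPA-treated and untreated E14 cells was hybridised to 4 Affymetrix arrays, 2 per group, grouped by the treatment in the labels. The deposited values are log2 signals that the authors computed by RMA, and the submitters' processing notes name Affymetrix Expression Console 1.1 as the software. The method corrects background, quantile-normalizes and summarises probes. The genome build and which arrays were normalized together are not given in the sources used here. No scanner files or detection calls were used, and the number of arrays limits the precision.

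Of 35556 probe sets, 21789 had 1 gene symbol in the platform annotation, 1621 several and 12146 none. The deposited values were fitted over all probe sets in limma 3.58.1 under R 4.3.3 (lmFit, then eBayes), with treatment as the only term. The residual degrees of freedom were 2, to which the moderation added 2.93. Tests were two-sided with Benjamini-Hochberg adjustment over all probe sets. Lists are described by counts and medians only. The code was tested on simulated data.

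Genes named are the 8 measured members, up to 4 genes of smallest p per list among those at an unadjusted p under 0.05, and 6 genes set by name (Prdm14, Dppa3, Ogt, Ung, Mbd4 and Hells). Mbd3, Trim28, Dazl, Sycp1, Tuba3a, Rpl10l, Asz1 and the marker genes Tfcp2l1, Dppa5a, Vim, Fn1, Sparc, Lum and Fap were named after their values were seen. Members and lists were chosen with earlier results of these data known. Alternatives were a second quantile normalization, median scaling, a replicate block, omission of dim probe sets, an intensity trend, other probe sets of a gene and each array left out in turn.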

Additional observations from a re-analysis of the deposited data

How the results depend on the processing

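No alternative brought a probe set past the adjusted threshold in limma. The alternatives altered 52 member differences, of which 44 kept their sign and 8, in 4 genes, did not. The other 36 of 88 could not differ by construction, since a block, a trend or a filter leaves the difference as it is, as does another choice of probe set in a gene with 1. The lowest adjusted p of a member was 0.451. Without untreated replicate 2 the median difference of the 8 genes was 0.016, against -0.14 over all arrays and -0.17 at the other end of the range with 1 array left out. Without that array 3 of them lay below 0, against 6 over all arrays and 7 without untreated replicate 1. Across the arrays left out, Dnmt1 ran from -0.11 to 0.064, Dnmt3a from -0.059 to 0.073, Dnmt3b from -0.34 to 0.034 and Tet3 from -0.35 to 0.0031. Dnmt3a was -0.066 after a second quantile normalization, and Tet3 was 0.033 with its dimmer probe set. The cause of these turns was not tested. Probe sets at an unadjusted p under 0.05 numbered 3269, of which 2049 were higher and 1220 lower, and 1670 and 1542 after the second normalization. They numbered 1827 without VPA replicate 2 and 2118 without VPA replicate 1, and up to 4242 with another array left out, in fits with 1 residual degree of freedom. With the replicate number as a block, that number was 2576 and 0 probe sets passed the adjusted test. The replicate 1 minus 2 differences of the groups correlated at -0.0966 over probe sets, and the labels do not say that a number marks a shared culture, so the block is given here only. What signal over background limits was not assessed, since no detection calls were used; the dimmest member was Tet3, at percentiles 56.2 and 51.7.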
